A study of Mus musculus with 6 samples.

Results

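The genes described here encode the enzymes, secreted proteins and scaffold proteins that build the cornified envelope, and they were chosen by name. They are the transglutaminases Tgm1, Tgm3 and Tgm5, the proteases Casp14 and Asprv1, the secreted proteins Krtdap, Dmkn and Sbsn, and the plakins Ppl and Evpl. All 10 were found by symbol among the 46517 genes listed, and all 10 passed the filter on low counts, which kept 19640 genes. RNA was sequenced from hair germ stem cells sorted from mouse back skin at 60 days of age, 3 days after depilation. The 3 groups, with 2 libraries each, were LEF1_TCF7dKO (Lef1fl/fl with Tcf7-/-), LEF1cKO (Lef1fl/fl) and WT (neither). All groups also carried Sox9-CreER, a tamoxifen-inducible Cre driven from Sox9, and the reporter R26-lox-stop-lox-YFP. Tcf7 was null in every cell of the LEF1_TCF7dKO mice, whereas Lef1 was deleted only where the Cre had acted. Cells were sorted by P-cadherin, Sca-1, CD34, integrin b1 and YFP. LEF1_TCF7dKO is called the double knockout below.

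The cornified envelope is the protein shell that replaces the plasma membrane of a dying keratinocyte. Periplakin and envoplakin form a scaffold under the membrane, transglutaminases join the scaffold and later proteins by isopeptide bonds, and proteases process filaggrin and other substrates. The process belongs to the upper layers of the epidermis and to the upper hair follicle. Hair germ cells sit at the base of the resting follicle and supply the growing hair, and LEF1 and TCF7 are DNA-binding partners of beta-catenin.

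The libraries held between 40480694 and 63220022 expected counts. The labels do not say whether libraries of a group came from separate animals, so p-values cover the spread between these samples only, and that spread may be technical. Lef1 stood at 9.22 and 9.42 TPM (RSEM's length-scaled transcript share) in the double knockout, 13.5 and 8.37 TPM in LEF1cKO, and 21.4 and 20.4 TPM in WT. Tcf7 stood at 13.7 and 18.0 TPM in the double knockout, 29.3 and 27.8 TPM in LEF1cKO, and 26.9 and 36.0 TPM in WT. The log2 fold change ± SE of Lef1 in LEF1cKO against WT was -0.92 ± 0.25 and did not pass (edgeR's BH-adjusted p = 0.282). In the double knockout against WT, Lef1 stood at -1.27 ± 0.25 (BH-adjusted p = 0.0122) and Tcf7 at -1.37 ± 0.21 (BH-adjusted p = 0.00641). The Lef1 call was lost without any 1 of the double knockout or WT libraries. Transcript outside a deleted part can still be read, so these levels do not measure protein. The hair germ markers Lhx2 and Sox9 were read in every library and were lower in the double knockout. Lhx2 stood at 114 and 198 TPM in the double knockout, 402 and 368 TPM in LEF1cKO, and 337 and 381 TPM in WT (log2 fold change ± SE of the double knockout against WT -1.38 ± 0.27, edgeR's BH-adjusted p = 0.0118). Sox9 stood at 33.5 and 41.7 TPM in the double knockout, 47.8 and 61.9 TPM in LEF1cKO, and 52.3 and 59.6 TPM in WT (-0.71 ± 0.16, BH-adjusted p = 0.0198). The Lhx2 call was lost without WT replicate 2, and the Sox9 call without either WT library or double knockout replicate 1. LEF1cKO replicate 1 stood apart in Xist, the transcript of the inactive X chromosome, with 0.66 TPM against 309 to 380 TPM in the other 5 libraries, all labelled as mixed in sex. Results that turn on this library are given with and without it.

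The envelope set was higher in the double knockout, where 9 of its 10 genes rose against WT; 1 rose in LEF1cKO against WT, and none fell in either. The 10 genes together held 4186 and 3747 TPM in the double knockout, 1229 and 1334 TPM in LEF1cKO, and 1047 and 949 TPM in WT. In the double knockout against WT, 18.0% of all genes tested were called higher and 19.6% lower, and the median log2 fold change was 1.88 over the 10 genes and 0.01 over all genes. In LEF1cKO against WT, 0.224% of all genes were called higher and 0.377% lower, and the median was 0.71 over the 10 genes and 0.01 over all genes. In the double knockout against LEF1cKO, 7 of the 10 rose and none fell, where 11.2% of all genes were called higher and 14.1% lower, with a median of 1.47 over the 10 genes. The 10 genes were chosen by name but with earlier results of these data known. The shares of all genes are thus no independent yardstick for these counts. The comparisons share libraries, so their values are not independent of each other. Calls are BH-adjusted p under 0.05 in edgeR's quasi-likelihood test with Benjamini-Hochberg (BH) adjustment over all genes tested, and changes are log2 fold changes ± SE. In bulk RNA, a change in the number of cells of a type cannot be told apart from a change in RNA per cell.

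**Figure D1:**
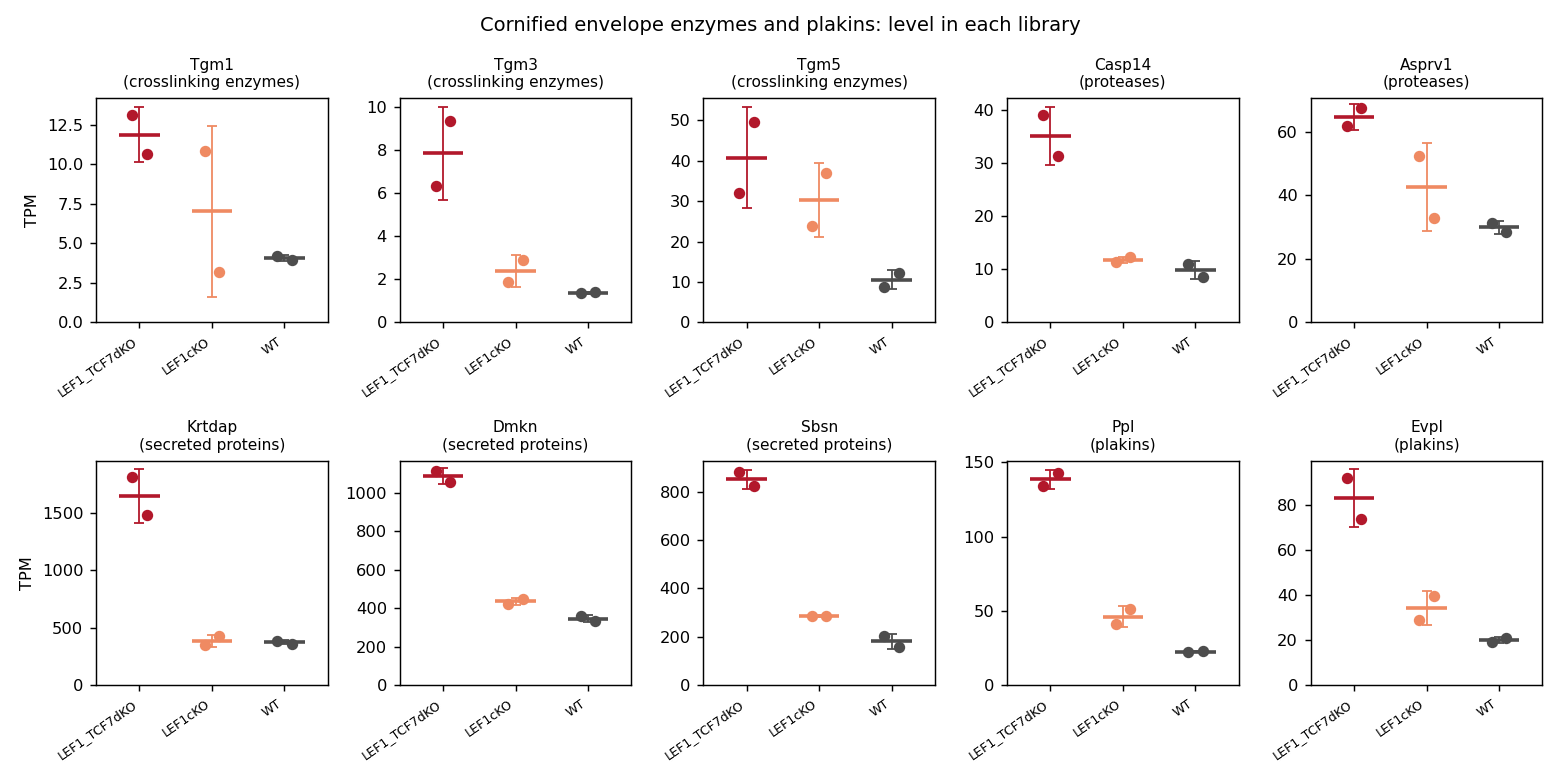
TPM (linear axis from 0) of each of the 10 genes in the LEF1_TCF7dKO, LEF1cKO and WT libraries. Points are libraries, horizontal lines are means, and error bars are SD (n = 2); in every panel both double knockout libraries lie above both WT libraries, as did those of 43.4% of all 19640 tested genes.

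The 3 secreted protein genes were the most abundant of the set and lie side by side. Sbsn encodes suprabasin, a transglutaminase substrate of suprabasal cells, Dmkn encodes dermokine, and Krtdap encodes the keratinocyte differentiation-associated protein. On the GRCm38 (mm10) build, with GENCODE M21 annotation, they are neighbours on the plus strand, with Sbsn at chr7:30751471-30756134, Dmkn at chr7:30763756-30781063 and Krtdap at chr7:30787896-30791097. The RefSeq sequence of the 250 bases before their start sites (GRCm38.p6, plus strand, 5′ to 3′) is printed because each window holds TGANTCA. These letters, with N any base, are a loose form of the site of AP-1 (Jun and Fos factors). Dmkn is shown at an upstream and a downstream RefSeq start. Capitals mark TGANTCA and, in Krtdap, a LEF/TCF match (CTTTGAT, read here on the other strand as ATCAAAG).
Sbsn, chr7:30751221-30751470: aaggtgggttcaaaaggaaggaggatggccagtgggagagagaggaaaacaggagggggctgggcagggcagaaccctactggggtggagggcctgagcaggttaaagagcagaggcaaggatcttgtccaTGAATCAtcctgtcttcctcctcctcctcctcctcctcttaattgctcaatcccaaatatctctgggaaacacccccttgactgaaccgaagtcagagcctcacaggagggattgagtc
Dmkn, upstream start, chr7:30763506-30763755: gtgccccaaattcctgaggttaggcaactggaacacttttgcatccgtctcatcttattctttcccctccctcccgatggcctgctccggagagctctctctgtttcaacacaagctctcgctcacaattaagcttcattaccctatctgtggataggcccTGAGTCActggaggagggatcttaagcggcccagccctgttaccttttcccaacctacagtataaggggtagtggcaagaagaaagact
Dmkn, downstream start, chr7:30776155-30776404: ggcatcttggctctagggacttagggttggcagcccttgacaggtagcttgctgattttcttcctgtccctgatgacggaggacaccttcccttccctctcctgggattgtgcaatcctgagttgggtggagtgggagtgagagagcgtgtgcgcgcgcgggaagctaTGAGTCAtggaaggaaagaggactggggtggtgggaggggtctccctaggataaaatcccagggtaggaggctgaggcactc
Krtdap, chr7:30787655-30787904: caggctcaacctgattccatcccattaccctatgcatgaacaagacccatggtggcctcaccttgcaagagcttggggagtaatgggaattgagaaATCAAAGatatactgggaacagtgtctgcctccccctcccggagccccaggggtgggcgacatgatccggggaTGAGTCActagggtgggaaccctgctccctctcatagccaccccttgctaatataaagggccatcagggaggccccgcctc

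In these windows the AP-1 letters began at -119 in Sbsn, -89 at the upstream Dmkn start, -82 at the downstream Dmkn start and -81 in Krtdap, counted back from the start site. A second match in Sbsn began at -6 and ran across the start. It read TGAGTCA, as did those of Dmkn and Krtdap, whereas the Sbsn match at -119 read TGAATCA. The LEF/TCF letters of Krtdap began at -154, and the TATA box letters TATAAA began at -30. Windows of 300 bases, 250 before and 50 after the start, were searched on both strands for 7 motifs, and 8 of the 10 genes matched a window. TGANTCA stood in 7.81% of all 32851 windows and in 5 of the 11 windows of the 8 genes. Those 5 windows belong to 3 of the genes, the 3 on chromosome 7. CTTTGAT stood in 3.73% of all windows and in 2 of the 11, from 2 genes. The related CTTTGAA stood in 5.14% of all windows and in none of the 11. The C/EBP letters TTGCNNAA stood in 10.8% of all windows and in 6 of the 11, from 4 genes. The KLF letters CCNCNCCC stood in 49.5% of all windows and in 9 of the 11, from 7 genes. The GRHL letters AACNGGTT stood in 2.09% and in 1, from 1 gene, and TATAAA in 13.6% and in 2, from 2 genes. The Dmkn windows at the upstream start overlap one another, and AP-1 matches were counted once per window. These matches describe letters only.

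Krtdap had 1811 and 1482 TPM in the double knockout, 348 and 423 TPM in LEF1cKO, and 387 and 361 TPM in WT. Both double knockout libraries were far above the other 4, and the LEF1cKO and WT libraries overlapped. Krtdap rose in the double knockout against WT (1.85 ± 0.12, BH-adjusted p = 0.00145) and against LEF1cKO (1.94 ± 0.12, BH-adjusted p = 0.0107), while LEF1cKO stood at -0.09 ± 0.12 relative to WT (BH-adjusted p = 0.894; 0.04 in limma on log2(TPM + 1)). In WT it was the most abundant of the 10 genes, at rank 361 of all genes by mean TPM, and in the double knockout it ranked 83.

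Dmkn had 1116 and 1057 TPM in the double knockout, 423 and 448 TPM in LEF1cKO, and 358 and 331 TPM in WT. The 3 groups did not overlap. With 2 libraries a group, such separation is common among all 19640 tested genes. Both LEF1cKO libraries lay above both WT libraries in TPM for 5567 of them. Both double knockout libraries lay above both LEF1cKO libraries for 6867. How many genes had all 3 groups apart in TPM was not counted, here and for the genes below. Dmkn rose in the double knockout against WT (2.0 ± 0.12, BH-adjusted p = 0.00133) and against LEF1cKO (1.43 ± 0.12, BH-adjusted p = 0.0107). LEF1cKO stood at 0.58 ± 0.12 relative to WT (BH-adjusted p = 0.156). Sbsn had 881 and 823 TPM in the double knockout, 288 and 284 TPM in LEF1cKO, and 204 and 159 TPM in WT. Its groups did not overlap either, and it had the third largest rise of the set in the double knockout against WT (2.36 ± 0.15, BH-adjusted p = 0.00145). Sbsn also rose in the double knockout against LEF1cKO (1.60 ± 0.15, BH-adjusted p = 0.0107), while LEF1cKO stood at 0.75 ± 0.15 relative to WT (BH-adjusted p = 0.145). Sbsn shares 279 exon bases with Tmem147os on the same strand, so some of its reads could belong to that RNA.

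RSEM's mean transcript length of Dmkn, Sbsn and Krtdap was compared between the groups, and no difference passed. Dmkn has 6 annotated transcripts; the shortest, of 662 bases, starts at the downstream start, and the others, of 977 to 2063 bases, start upstream of it. RSEM's mean transcript length for Dmkn was 1070 and 1025 bases in the double knockout, 979 and 893 bases in LEF1cKO, and 770 and 755 bases in WT. For Sbsn it was 1351 and 1289 bases in the double knockout, 1249 and 1230 bases in LEF1cKO, and 1105 and 1111 bases in WT. Krtdap ran the other way, at 375 and 388 bases in the double knockout, 406 and 400 bases in LEF1cKO, and 422 and 412 bases in WT. The groups did not overlap in these 3 genes, with LEF1cKO in the middle, a pattern shown by 4.58% of the 11779 tested genes with several transcripts. The 3 genes are neighbours and were singled out after their lengths were seen. None passed a limma test of log2 length over those genes, in which 0.153% of genes were called between the double knockout and WT, 0.0255% between LEF1cKO and WT, and 0.0594% between the knockouts. Between the double knockout and WT the log2 length differences were 0.46 ± 0.06 for Dmkn (BH-adjusted p = 0.178), 0.25 ± 0.03 for Sbsn (BH-adjusted p = 0.157) and -0.13 ± 0.03 for Krtdap (BH-adjusted p = 0.25). With effective length as an offset, the log2 fold change between the double knockout and WT was 1.52 for Dmkn, 2.09 for Sbsn and 1.99 for Krtdap, and all 3 still passed. Without the offset these values were 2.0, 2.36 and 1.85.

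**Figure D2:**
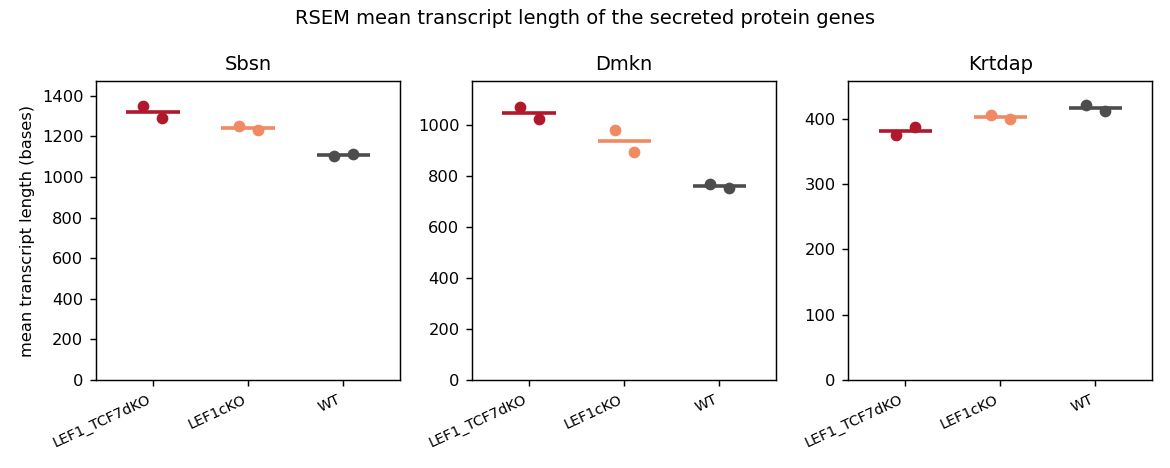
RSEM mean transcript length in bases (axis from 0) of Sbsn, Dmkn and Krtdap in the LEF1_TCF7dKO, LEF1cKO and WT libraries. Points are libraries and lines are group means (n = 2); the double knockout is longest for Sbsn and Dmkn and shortest for Krtdap.

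Most tested neighbours of the 3 genes on chromosome 7 did not pass. The 3 genes span 39627 bases, and within 100 kb on either side 18 other genes are annotated, of which 10 were tested. In the double knockout against WT, 1 of these 10 rose, 1 fell, and their median log2 fold change was 0.22. In that comparison 18.0% of all genes tested were called higher and 19.6% lower. Gm26935, which lies before Sbsn on the same strand, did not pass (1.23 ± 0.39, BH-adjusted p = 0.0509). The one that rose was Atp4a, a subunit of the gastric proton pump, with 4.58 and 1.31 TPM in the double knockout and 0.65 and 0.42 TPM in WT (2.28 ± 0.66, BH-adjusted p = 0.0397). The one that fell was Haus5, a subunit of the augmin complex of the mitotic spindle (-0.81 ± 0.16, BH-adjusted p = 0.0117). Gm26935, Atp4a and Haus5 were singled out after their values were seen.

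**Figure D3:**
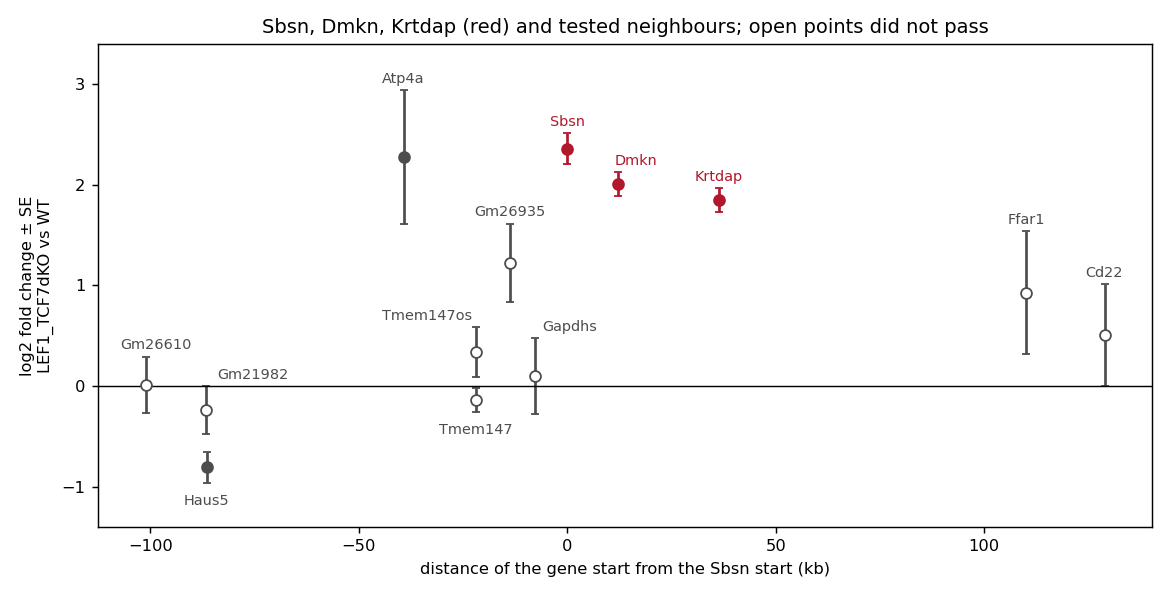
log2 fold change ± SE (edgeR) in LEF1_TCF7dKO against WT for Sbsn, Dmkn and Krtdap (red) and the 10 tested neighbours (grey), by distance of each gene's start from the Sbsn start in kb. Filled points passed; besides the 3 red genes only Atp4a and Haus5 did.

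The 2 plakins rose together. Periplakin and envoplakin are partners in the scaffold on which the envelope is laid down. Ppl (chr16:5086291-5132421, minus strand) had 134 and 143 TPM in the double knockout, 41.0 and 51.0 TPM in LEF1cKO, and 22.2 and 22.9 TPM in WT. The 3 groups did not overlap, with LEF1cKO in the middle. Ppl had the largest rise of the set in the double knockout against WT (2.48 ± 0.12, BH-adjusted p = 0.000874) and rose against LEF1cKO (1.54 ± 0.12, BH-adjusted p = 0.0107). It was also the one gene of the set that rose in LEF1cKO against WT (0.95 ± 0.12, BH-adjusted p = 0.0351). That last call was lost when any library other than LEF1cKO replicate 1 was left out (BH-adjusted p = 0.0666 to 0.295), and it held without LEF1cKO replicate 1.

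Evpl (chr11:116220559-116238077, minus strand) had 92.0 and 73.9 TPM in the double knockout, 28.9 and 39.4 TPM in LEF1cKO, and 18.9 and 20.9 TPM in WT. It rose in the double knockout against WT (1.92 ± 0.16, BH-adjusted p = 0.00259) and against LEF1cKO (1.22 ± 0.16, BH-adjusted p = 0.0113), while LEF1cKO stood at 0.70 ± 0.16 relative to WT (BH-adjusted p = 0.201). The ratio of Ppl to Evpl, both per length, was 1.46 and 1.94 in the double knockout, 1.42 and 1.29 in LEF1cKO, and 1.17 and 1.10 in WT. Ppl was thus the higher of the pair in every library, and its excess was larger in both double knockout libraries than in both WT libraries. Of the 4 other plakin genes tested, the desmosomal Dsp (1.27 ± 0.19, BH-adjusted p = 0.00599) and the hemidesmosomal Plec (1.11 ± 0.20, BH-adjusted p = 0.00946) rose in the double knockout against WT. There 18.0% of all genes tested were called higher. Dsp had 864 and 640 TPM in the double knockout and 280 and 284 TPM in WT. Plec no longer passed when either WT library or double knockout replicate 1 was left out (BH-adjusted p = 0.0552 to 0.0654). Dst and Macf1 had values of 0.33 ± 0.12 and -0.21 ± 0.20 and did not pass.

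All 3 transglutaminases had higher values in the double knockout than in WT, and Tgm5 and Tgm3 passed. Tgm5 was the most abundant of them in every library, and it is the crosslinking enzyme whose loss in people makes the outermost skin peel. Tgm5 (chr2:121046111-121085841, minus strand) had 32.0 and 49.6 TPM in the double knockout, 23.9 and 36.9 TPM in LEF1cKO, and 8.82 and 12.2 TPM in WT. The double knockout and LEF1cKO libraries overlapped, and both groups lay above WT. Tgm5 rose in the double knockout against WT (1.82 ± 0.30, BH-adjusted p = 0.00781). LEF1cKO stood at 1.44 ± 0.30 relative to WT (BH-adjusted p = 0.165), the largest value of the 10 genes in that comparison. Between the knockouts the value was 0.37 ± 0.29 (BH-adjusted p = 0.379).

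Tgm3 (chr2:130012349-130050399, plus strand), an enzyme made as a precursor that proteases activate, was the lowest of the 10 genes in all 3 groups. It had 6.33 and 9.36 TPM in the double knockout, 1.87 and 2.91 TPM in LEF1cKO, and 1.34 and 1.39 TPM in WT. The groups did not overlap. It rose in the double knockout against WT (2.38 ± 0.29, BH-adjusted p = 0.00418) and against LEF1cKO (1.67 ± 0.28, BH-adjusted p = 0.0153), while LEF1cKO stood at 0.72 ± 0.28 relative to WT (BH-adjusted p = 0.492). The rise against LEF1cKO did not pass without LEF1cKO replicate 1 (1.42, BH-adjusted p = 0.0608). These levels rest on 183 to 991 reads per library.

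Tgm1, the membrane-bound enzyme that crosslinks the envelope, was the gene of the set whose change did not pass between the double knockout and WT. It lies at chr14:55700009-55713926 on the minus strand. The RefSeq sequence of the 250 bases before its upstream start (GRCm38.p6, minus strand, 5′ to 3′) is printed since it is the other window with CTTTGAT, in capitals, beginning at -208.
Tgm1, chr14:55713493-55713742: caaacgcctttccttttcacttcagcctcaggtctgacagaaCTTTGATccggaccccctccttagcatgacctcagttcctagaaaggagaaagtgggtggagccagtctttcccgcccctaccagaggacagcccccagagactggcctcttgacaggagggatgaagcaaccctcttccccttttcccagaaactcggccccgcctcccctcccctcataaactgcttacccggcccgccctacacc

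Tgm1 had 13.1 and 10.7 TPM in the double knockout, 10.8 and 3.19 TPM in LEF1cKO, and 4.18 and 3.93 TPM in WT. Both double knockout libraries were above both WT libraries, whereas the 2 LEF1cKO libraries lay far apart, with replicate 1 at the double knockout level and replicate 2 below WT. The log2 fold change was 1.41 ± 0.55 in the double knockout against WT (BH-adjusted p = 0.0907), 0.74 ± 0.54 in LEF1cKO against WT (BH-adjusted p = 0.763) and 0.67 ± 0.54 between the knockouts (BH-adjusted p = 0.392). Without LEF1cKO replicate 1, Tgm1 rose in the double knockout against WT (1.40, BH-adjusted p = 0.00341) and against LEF1cKO (1.88, BH-adjusted p = 0.0217), and the value in LEF1cKO against WT turned to -0.48 (BH-adjusted p = 0.34). It also passed against WT without LEF1cKO replicate 2 (BH-adjusted p = 0.00273), with only the groups compared (BH-adjusted p = 0.00308), with DESeq2 (BH-adjusted p = 0.0199) and with no filter (BH-adjusted p = 0.0289). Tgm1 shares 182 exon bases with the antisense gene Gm49067, and the sources used here do not state whether reads were counted by strand.

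Of 5 other genes of the transglutaminase family tested, 3 rose in the double knockout against WT. There 18.0% of all genes tested were called higher. Tgm7 had 3.22 and 1.58 TPM in the double knockout and 0.37 and 0.24 TPM in WT (2.82 ± 0.49, BH-adjusted p = 0.00856). F13a1, the coagulation factor XIII subunit known from macrophages and platelets, had 26.9 and 20.8 TPM in the double knockout and 2.51 and 0.34 TPM in WT (3.94 ± 0.84, BH-adjusted p = 0.0152). Tgm2, the widely expressed tissue transglutaminase, had 14.6 and 6.22 TPM in the double knockout and 2.48 and 1.18 TPM in WT (2.36 ± 0.54, BH-adjusted p = 0.0189). Without double knockout replicate 1 or without WT replicate 2, only 1 of these 3 still passed.

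Both proteases rose in the double knockout against WT, and the difference between them was not tested. Casp14, a caspase of cornifying cells that takes part in the breakdown of filaggrin, lies at chr10:78711991-78718294 on the minus strand. It had 39.0 and 31.3 TPM in the double knockout, 11.4 and 12.2 TPM in LEF1cKO, and 11.0 and 8.58 TPM in WT. The double knockout stood well above the other groups. Casp14 rose against WT (1.70 ± 0.17, BH-adjusted p = 0.00331) and against LEF1cKO (1.51 ± 0.17, BH-adjusted p = 0.0108), while LEF1cKO stood at 0.19 ± 0.16 relative to WT (BH-adjusted p = 0.803).

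Other caspases went both ways in the double knockout against WT. Casp6, an executioner of apoptosis, fell (-1.22 ± 0.14, BH-adjusted p = 0.00391), as did Casp2 (-0.97 ± 0.14, BH-adjusted p = 0.00587). Casp6 had 21.1 and 26.2 TPM in the double knockout and 48.2 and 45.6 TPM in WT. Both falls held with any library left out. The rises of Casp4 and Casp8 (1.24 ± 0.36 and 0.57 ± 0.15) were lost without any 1 of the double knockout or WT libraries (BH-adjusted p = 0.0588 to 0.187).

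Asprv1 (chr6:86628164-86629710, plus strand), a single-exon gene for the retroviral-like aspartic protease that cleaves profilaggrin, had 61.7 and 67.4 TPM in the double knockout, 52.3 and 32.8 TPM in LEF1cKO, and 31.4 and 28.3 TPM in WT. The groups did not overlap, but the LEF1cKO libraries were spread wide. Its rise in the double knockout against WT was the smallest that passed (0.97 ± 0.25, BH-adjusted p = 0.0262). That call was lost without any 1 of the double knockout or WT libraries (BH-adjusted p = 0.0855 to 0.136). LEF1cKO stood at 0.45 ± 0.25 relative to WT (BH-adjusted p = 0.667), and between the knockouts it was 0.53 ± 0.25 (BH-adjusted p = 0.159; 0.96 and 0.0301 without LEF1cKO replicate 1).

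**Figure D4:**
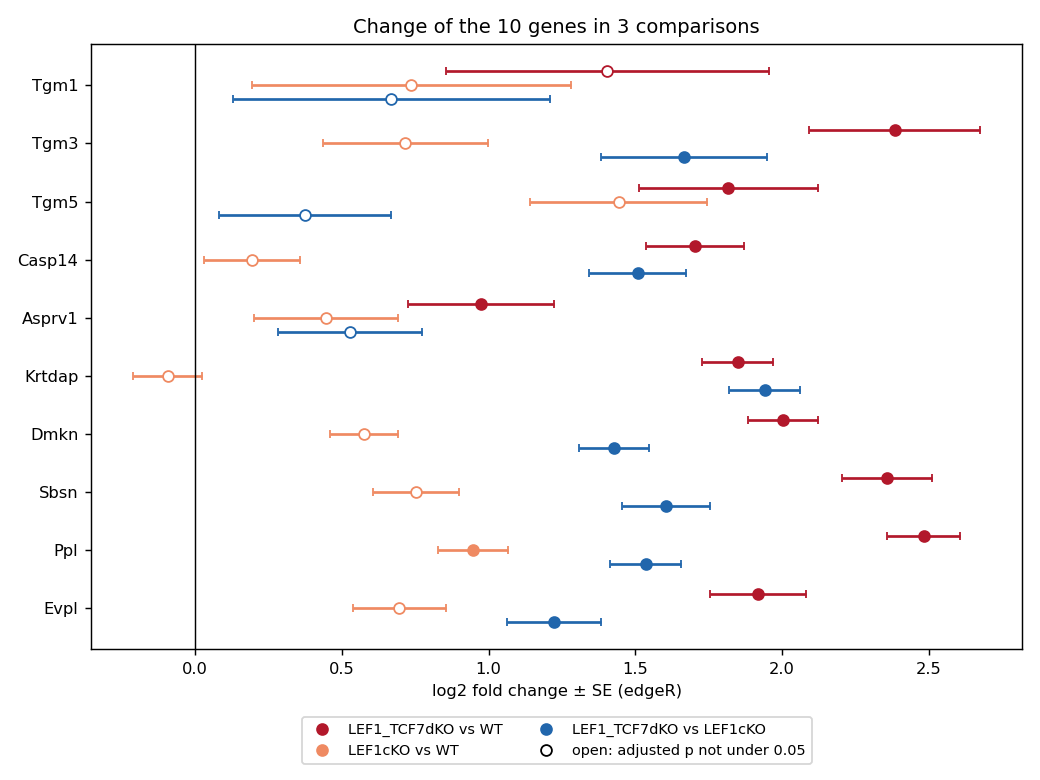
log2 fold change ± SE (edgeR) of the 10 genes in LEF1_TCF7dKO against WT (red), LEF1cKO against WT (orange) and LEF1_TCF7dKO against LEF1cKO (blue). Filled points passed at adjusted p under 0.05: 9 red, 1 orange and 7 blue.

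The 7 rises between the knockouts kept their direction but not their calls when 1 library was left out. Without double knockout replicate 1, none of the 10 genes and 1 gene of all those tested passed in that comparison. The 7 genes then had BH-adjusted p = 0.0777 to 0.0780 and log2 fold changes between 1.09 and 1.95. Against WT, 8 to 10 of the 10 genes rose whichever library was left out.

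By level, the order of the 10 genes was nearly the same in the 3 groups. In the double knockout and in WT, Krtdap, Dmkn and Sbsn led, and Casp14, Tgm1 and Tgm3 closed the list. Ppl stood 4th in the double knockout with a mean of 139 TPM and 5th in WT with 22.6 TPM, behind Asprv1. In LEF1cKO, Dmkn (423 and 448 TPM) was ahead of Krtdap (348 and 423 TPM) in mean by less than the SD of Krtdap (52.8 TPM). Tgm5 and Casp14, next to each other in the order, overlapped in the double knockout and in WT. In LEF1cKO the overlapping neighbours were Ppl and Asprv1, Asprv1 and Evpl, and Evpl and Tgm5.

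Krt10, the keratin of the first suprabasal cells, rose in the double knockout against WT. It had 5916 and 5887 TPM in the double knockout, 1493 and 1440 TPM in LEF1cKO, and 587 and 437 TPM in WT (double knockout against WT 3.39 ± 0.22, BH-adjusted p = 0.00142). Per 100 TPM of Krt10, Sbsn stood at 14.9 and 14.0 TPM in the double knockout, 19.3 and 19.7 TPM in LEF1cKO, and 34.8 and 36.4 TPM in WT. Ppl stood at 2.27 and 2.43 TPM in the double knockout, 2.74 and 3.54 TPM in LEF1cKO, and 3.78 and 5.24 TPM in WT on the same scale. All 10 genes were lower relative to Krt10 in both double knockout libraries than in both WT libraries, and so were 94.1% of all 19640 tested genes, with the rise of Krt10 in the denominator. The ratio was not tested.

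The counts of the wider cornification genes in the double knockout against WT follow. These lists and those of the later paragraphs were also chosen with earlier results of these data known. In that comparison 18.0% of all genes tested were called higher and 19.6% lower. All 6 suprabasal keratins tested rose, with Krt78 highest in fold (5.13 ± 0.20, BH-adjusted p = 0.000576). The Krt2 call was lost without either WT library (2.85 and 2.76, against 2.80 ± 0.50 with all libraries). Krt2 had 2.28 and 0.90 TPM in the double knockout and 0.21 and 0.20 TPM in WT. In LEF1cKO, 3 of the 6 rose as well, namely Krt2, Krt77 and Krt78, where 0.224% of all genes tested were called higher. Krt78 passed there with any library left out, whereas Krt2 did not pass without any 1 of the LEF1cKO or WT libraries, and Krt77 did not without either double knockout library. Of 47 envelope proteins listed, 25 passed the filter on low counts, which a gene can pass through the libraries of a single group. A gene near 0 in WT could thus enter through the double knockout, and for such a gene only a rise could be called. Of the 25 tested, 10 rose and none fell (median 1.55), led by Anxa1, which codes for annexin A1 (1.23 ± 0.14, BH-adjusted p = 0.00386), Cdsn, which codes for corneodesmosin (3.43 ± 0.45, BH-adjusted p = 0.00486), and the involucrin gene Ivl (1.65 ± 0.23, BH-adjusted p = 0.00528). That count was 4 to 17 when libraries were left out in turn, lowest without WT replicate 2 and highest without either LEF1cKO library. Of 18 enzymes and transporters of barrier lipids, 13 rose and 1 fell (median 2.27), among them Abca12, which loads lipid into lamellar granules (2.80 ± 0.28, BH-adjusted p = 0.0034), the ceramidase gene Acer1 (3.25 ± 0.36, BH-adjusted p = 0.00366) and the lipase gene Lipm (2.36 ± 0.19, BH-adjusted p = 0.00235). Other rises of this list, those of Cers3, Elovl4, Abhd5 and Smpd1, were lost without either WT library or double knockout replicate 1.

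Barrier proteases and inhibitors were mixed, with 7 of 24 higher and 2 lower, where 18.0% of all genes tested were called higher and 19.6% lower. The same shares of all genes stand beside the counts of regulators and cell cycle genes below. The kallikreins Klk11 (2.79 ± 0.21, BH-adjusted p = 0.002) and Klk5 (1.98 ± 0.26, BH-adjusted p = 0.0049) rose, and Padi3, a deiminase of the hair follicle, fell (-5.49 ± 0.78, BH-adjusted p = 0.00553). The count of rises was 3 without double knockout replicate 1 and 4 without WT replicate 2. Of 27 regulators of epidermal differentiation, 12 rose and 2 fell. Grhl3 had 29.2 and 23.4 TPM in the double knockout and 5.09 and 5.12 TPM in WT (2.22 ± 0.15, BH-adjusted p = 0.00153), and Rora had 32.6 and 22.1 TPM in the double knockout and 2.43 and 1.79 TPM in WT (3.77 ± 0.23, BH-adjusted p = 0.00133). Dlx3, a homeobox factor of the hair matrix, had 5.52 and 6.61 TPM in the double knockout and 123 and 102 TPM in WT (-4.34 ± 0.38, BH-adjusted p = 0.00265). The rises among these regulators numbered 6 without WT replicate 1, and 7 without WT replicate 2 or double knockout replicate 1. The 15 cell cycle genes all fell in the double knockout against WT (median -1.44), and 14 did without WT replicate 2.

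**Figure D5:**
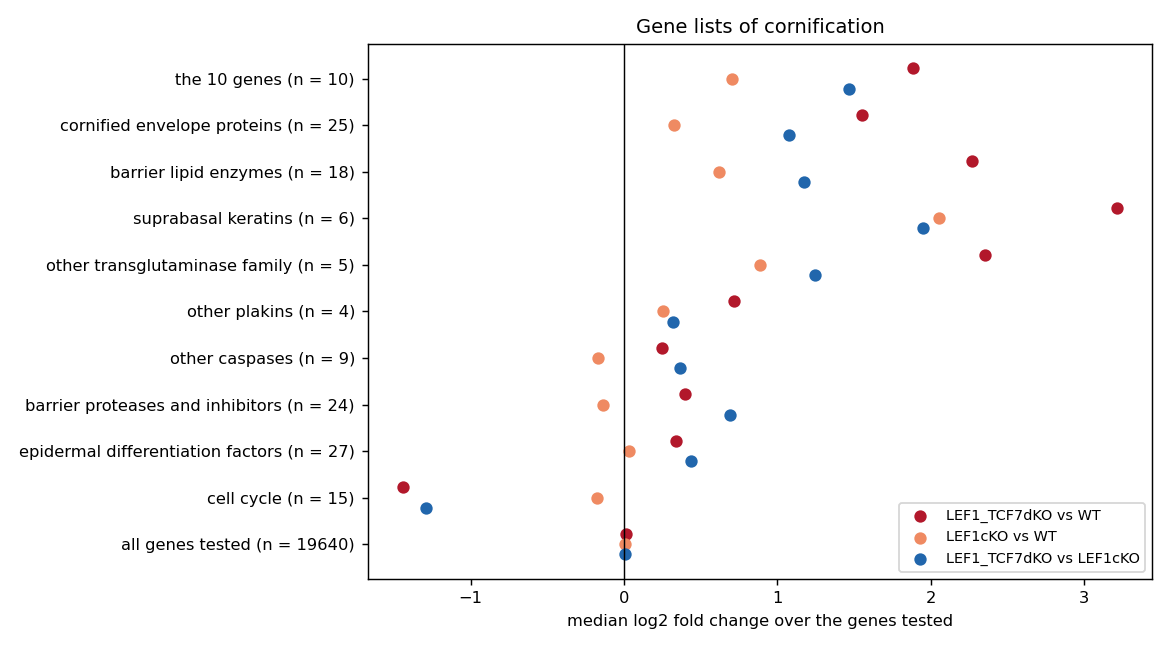
Median log2 fold change over the tested genes of each list in LEF1_TCF7dKO against WT (red), LEF1cKO against WT (orange) and LEF1_TCF7dKO against LEF1cKO (blue), with all genes tested at the bottom. The medians in the double knockout against WT are 1.88 for the 10 genes, 2.27 for the barrier lipid enzymes and 0.01 for all genes.

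Most immune, fibroblast, and endothelial and mural markers were also called higher in the double knockout, where 18.0% of all tested genes were. Of 13 immune markers, 10 rose in the double knockout against WT and none fell, and their summed level was 1188 to 1268 TPM in the double knockout, 280 to 465 TPM in LEF1cKO, and 70.8 to 179 TPM in WT. Of 12 fibroblast markers, 10 rose, with sums of 2922 to 3271 TPM in the double knockout, 867 to 1713 TPM in LEF1cKO, and 740 to 949 TPM in WT. Of 11 endothelial and mural markers, 9 rose, with sums of 128 to 270 TPM in the double knockout, 65.6 to 71.8 TPM in LEF1cKO, and 54.2 to 70.9 TPM in WT. Upper follicle markers numbered 3 of 8 higher, with sums of 2358 to 2931 TPM in the double knockout, 700 to 1530 TPM in LEF1cKO, and 1253 to 1386 TPM in WT. Of 12 sebaceous markers, 2 rose, with sums of 877 to 2326 TPM in the double knockout, 217 to 816 TPM in LEF1cKO, and 324 to 394 TPM in WT. Of 9 melanocyte and Schwann markers, 3 rose and none fell, with a median log2 fold change of -0.41 and sums of 354 to 545 TPM in the double knockout, 264 to 391 TPM in LEF1cKO, and 413 to 605 TPM in WT. In these 6 lists no gene was at 0 in all libraries. Of the sort genes, Cd34 (1.54 ± 0.28, BH-adjusted p = 0.00954) and Ly6a, which encodes Sca-1 (2.22 ± 0.41, BH-adjusted p = 0.00968), rose, and Cdh3, which encodes P-cadherin, fell (-0.93 ± 0.18, BH-adjusted p = 0.0109); each of these 3 calls was lost without WT replicate 2 or double knockout replicate 1, and that of Cdh3 also without WT replicate 1. Of 13 hair germ and bulge markers, 1 rose and 9 fell, where 19.6% of all tested genes were called lower. With libraries left out in turn, the rises numbered 8 to 10 immune, 3 to 10 fibroblast, 1 to 10 endothelial and mural, 0 to 7 upper follicle, 0 to 8 sebaceous and 1 to 3 melanocyte and Schwann markers, and the hair germ and bulge falls 3 to 9. The lowest counts came without double knockout replicate 1 for immune and fibroblast markers, and without WT replicate 2 for the endothelial, upper follicle and hair germ markers. The part of other cells in the envelope gene values was not tested.

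For each gene the tested gene with the most similar profile was sought among 10460 candidates of at least 5 mean TPM, by the root mean square difference of centred log2 CPM over the 6 libraries. Dmkn was closest to Galnt6 (0.0575), Evpl to Clip4 (0.062), Sbsn to Clic3 (0.0693), Ppl to Scnn1a (0.0766), Tgm3 to Smarcd3 (0.0797) and Casp14 to Arhgef37 (0.0826). Asprv1 was closest to Nfkbia (0.12), Tgm5 to Zdhhc2 (0.139), Tgm1 to the loricrin gene Lor (0.154) and Krtdap to Lgals3 (0.158). Lor had 24.2 and 18.0 TPM in the double knockout, 19.8 and 4.97 TPM in LEF1cKO, and 8.85 and 6.05 TPM in WT. Its LEF1cKO libraries lay apart as for Tgm1, which the choice by likeness over these same 6 libraries favours. How close a best match usually lies was not tested.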

How the data were processed

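Per the submitters' processing notes, reads were processed with Bowtie2 2.2.9 and RSEM 1.2.30 on mm10, with no annotation release given in the sources used here. Expected counts were estimated per gene by the authors with RSEM and deposited without normalization. TPM and mean transcript length are as deposited, per the file headers; FPKM was deposited by the authors and not used. Counts were rounded and tested in edgeR 4.0.16 (R 4.3.3) with TMM, filterByExpr, all 6 libraries in one quasi-likelihood fit with 3 residual degrees of freedom, and Benjamini-Hochberg adjustment at 0.05. The mean transcript length test (limma 3.58.1) and the leave-outs of the gene lists were added after seeing the data. The other alternatives were DESeq2 1.42.0, limma voom, limma on log2(TPM + 1) and log2(TPM + 0.1), other scalings and filters (10 CPM in 2 libraries), an effective length offset, a replicate block and leave-outs. The test was checked on simulated data with far fewer changed genes than were called between the double knockout and WT. Positions come from GENCODE M21 (98.9% of genes matched), promoters from RefSeq. From each list, up to 3 genes that passed between the double knockout and WT were named, by smallest p. The 10 genes and the lists were chosen with earlier results of these data known. Some results are not reported here.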

Additional observations from a re-analysis of the deposited data

How the results depend on the processing

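In the double knockout against WT, the number of the 10 genes called was 8 to 10 in all alternatives and 8 to 10 when libraries were left out in turn. In LEF1cKO against WT it was 4 with no filter, 5 with DESeq2 and 0 with only the groups compared, and 0 to 1 with a library left out, 1 being without LEF1cKO replicate 1. Between the knockouts it was 7 in every alternative other than leave-outs, and 0 to 8 with a library left out, 0 being without double knockout replicate 1. The replicate block gave 9 between the double knockout and WT, 1 in LEF1cKO against WT and 7 between the knockouts; under it Tgm5 was called in place of Ppl in LEF1cKO against WT (adjusted p = 0.0197 and 0.0718). Same-numbered libraries did not deviate together (correlations of -0.042, 0.056 and -0.028), so the numbers were not taken as pairs. Direction turned for Krtdap in LEF1cKO against WT on log2(TPM + 1) and log2(TPM + 0.1) (0.038 in both), for Tgm1 there without LEF1cKO replicate 1 (-0.48 to 1.39 over the leave-outs), and for Tgm5 between the knockouts without double knockout replicate 2 (-0.016 to 0.69); none of these passed. All genes called numbered 118 in LEF1cKO against WT, 422 with no filter, 612 with DESeq2, and 37.3% of calls were higher, against 59.0% with DESeq2 and 17.8% on log2(TPM + 1). The causes of these differences were not tested. With 2 libraries a group, a leave-out leaves 1 library alone in its group, which was assumed to have the spread of the others.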
